A study of Mus musculus with 20 samples.

Results

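The genes described here are 4 Notch ligands (Dll1, Dll4, Jag1 and Jag2), the 4 Notch receptors (Notch1, Notch2, Notch3 and Notch4) and 2 Notch targets (Hey1 and Heyl). They were taken by symbol from the gene list of the expression matrices, where they are 10 of 31053 genes, and all 10 were measured. Stromal vascular cells of mouse interscapular brown adipose tissue (iBAT) had been depleted of immune cells with magnetic beads, and the lineage-negative (Lin-) remainder was profiled by droplet single-cell RNA-seq. Male C57BL/6J mice of 8 to 14 weeks formed 3 groups of 2 Lin- libraries each: room temperature (RT, 24 °C), cold (COLD, 4 days at 6 °C) and the β3-adrenergic agonist CL316,243 (CL, 0.75 nmol per hour by pump for 4 days). Each library was a pool of 3 to 4 mice. A second set of 4 Lin- libraries came from female mice of the same ages with loxP sites in both Adrb1 alleles, all given tamoxifen, that were Pdgfra-CreER -/- (WT) or Pdgfra-CreER +/- (KO). It had 1 library for each genotype at RT and 1 for each after 4 days of cold. The Cre is driven by Pdgfra, a gene of stromal cells, so recombination is limited to Pdgfra-expressing cells and their descendants. The RT libraries of this line used version 3 of the library kit and the cold libraries version 2, so temperature and kit cannot be told apart there.

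Notch signalling passes between touching cells. A Delta-like or Jagged ligand on a cell binds a Notch receptor on its neighbour, proteases release the intracellular domain of the receptor, and that domain joins the DNA-binding protein RBPJ to switch on target genes, among them the Hey family of transcriptional repressors. In blood vessels the pathway is known for setting arterial identity, for restraining sprouting tip cells and for maturing the pericytes and smooth muscle cells of the vessel wall.

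After filtering, the 10 Lin- libraries held 66339 cells (2427 to 12894 per library, median 1204 to 3881 UMIs per cell). Clusters were named from marker genes, in a clustering that left out the 10 genes and 44 further Notch pathway genes, and 46896 cells (70.7%) fell into the 10 classes compared here. The leading genes of the arterial-like clusters included Stmn2, Sox17 and Gkn3, those of the capillary-like Gpihbp1, Car4 and Cd300lg, of the venous-like Lrg1, Vwf and Selp, of the pericyte-like Kcnj8, Rgs5 and Abcc9, and of the vascular smooth muscle cell (VSMC)-like Myh11, Acta2 and Tagln. The stromal classes were the adipose stromal cell classes ASC1-like (Cxcl14, Hsd11b1), ASC2-like (Pi16, Sema3c) and ASC3-like (Gdf10, Clec11a), and clusters led by Cthrc1 and by Cilp that are called by those genes. A cluster of the ASC1-like class, cluster 2, was led by the interferon-induced and inflammatory genes Cxcl9, Cxcl10 and Ccl2. It had none of the class's own markers among its 10 leading genes. Cluster 2 held 85.3% and 90.7% of ASC1-like cells in the C57 COLD libraries, 56.5% and 38.7% in the CL libraries and 4.34% and 4.85% in the C57 RT libraries. In the Adrb1 line it held 222 of 451 (WT) and 159 of 312 (KO) at RT, and 941 of 1442 and 579 of 832 after cold. Levels are CPM, the corrected UMI counts of a gene summed over the cells of a class in a library, scaled to the same total for each such sum. CPM are shares of RNA, so fewer cells of a kind within a class and less RNA per cell cannot be told apart. The smallest sum behind a class in the C57 mice was that of 46 capillary-like cells in CL replicate 2, whereas CL replicate 1 held 2469 of the 4513 capillary-like cells, at a median of 624 UMIs.

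The 10 genes lie on chromosomes 2 (Dll4, chr2:119325784-119335962; Jag1, chr2:137081456-137116644; Notch1, chr2:26457903-26516663), 3 (Hey1, chr3:8663359-8667256; Notch2, chr3:98013527-98150361), 4 (Heyl, chr4:123233556-123249875), 12 (Jag2, chr12:112907819-112929776) and 17 (Dll1, chr17:15367354-15376872; Notch3, chr17:32120820-32166852; Notch4, chr17:34564268-34588503) of the GRCm38 assembly, as protein-coding genes. Dll4 and Jag1 differed in endothelial distribution (Dll4 in arterial-like and capillary-like cells, Jag1 in arterial-like and hardly in capillary-like cells), so the DNA upstream of their starts is shown, with the letters CACGCG, or CGCGTG where the other strand holds them, a motif that HEY and HES repressors are known to bind, in capitals. Among RefSeq promoters of GRCm38.p6, 7.62% of 32851 windows of 250 bases held it, as did those of Dll1, Dll4, Jag1 and Notch2 among the 8 of the 10 genes with a window. The first is a share of windows and the second a count of genes, so they are not like measures. The motif is rich in CG, and the Dll4 and Jag1 sequences shown are 65.6% and 70.6% GC. The part of base composition in its share among the 8 was not tested. The RBPJ core TGGGAA, searched also as TTCCCA, was in 21.6% of all windows and the palindromic E-box CACGTG in 6.02%, and neither was in any of the 8. The Dll4 sequence is chr2:119325534-119325783, plus strand, 250 bases, and the Jag1 sequence is chr2:137116645-137116770, minus strand, 126 bases, the part of its window before the annotated gene start, both read 5′ to 3′ and from RefSeq.
Dll4: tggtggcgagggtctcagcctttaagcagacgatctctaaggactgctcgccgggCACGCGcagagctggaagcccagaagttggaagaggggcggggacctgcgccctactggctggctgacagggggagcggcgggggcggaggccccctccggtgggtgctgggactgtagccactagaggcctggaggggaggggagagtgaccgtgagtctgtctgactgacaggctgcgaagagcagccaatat
Jag1: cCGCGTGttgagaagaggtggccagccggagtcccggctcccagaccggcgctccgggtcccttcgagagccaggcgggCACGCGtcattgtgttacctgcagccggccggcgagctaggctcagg

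The first question was where each gene was expressed among the 10 classes. Of the ligands, Dll1, Dll4 and Jag2 were endothelial, whereas Jag1 was shared by arterial-like, pericyte-like and VSMC-like cells. Of the receptors, Notch1 and Notch4 were highest in arterial-like cells, Notch3 in mural cells and Notch2 in ASC2-like cells. Hey1 was highest in arterial-like cells and Heyl in pericyte-like cells. The heat map of mean levels by class shows this order.

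**Figure D1:**
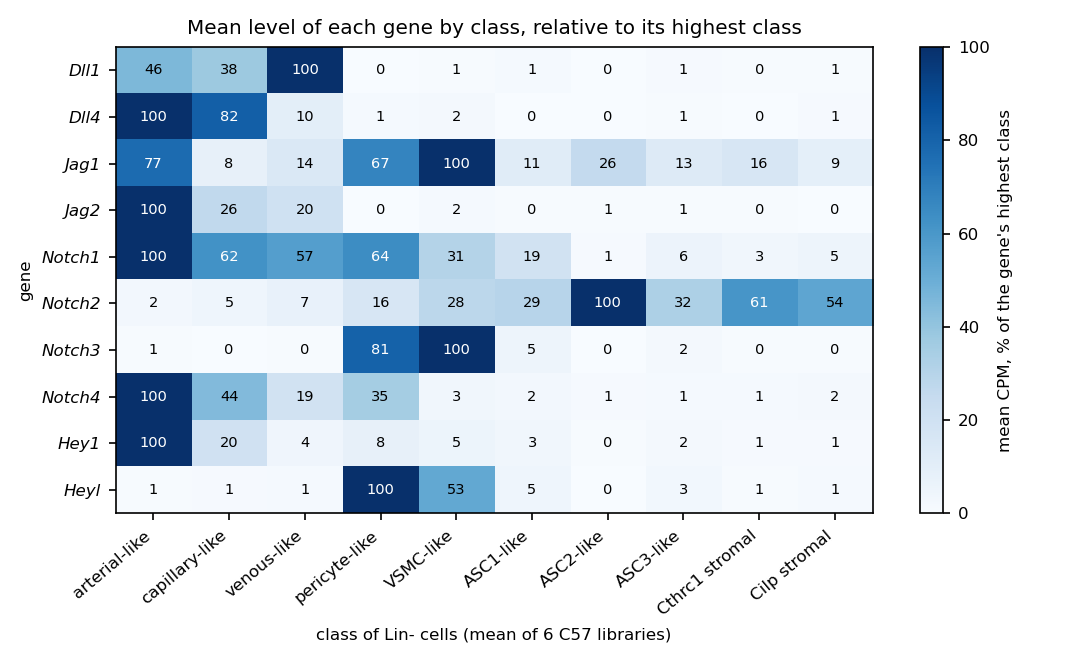
Mean CPM of each gene in each of the 10 classes of Lin- cells over the 6 C57 libraries, as a percent of the gene's highest class (colour and printed number). Dll1 peaked in venous-like, Dll4, Jag2, Notch1, Notch4 and Hey1 in arterial-like, Jag1 and Notch3 in VSMC-like, Heyl in pericyte-like and Notch2 in ASC2-like cells.

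Dll4, the ligand best known for arterial specification, had 182 ± 58.7 CPM in arterial-like cells (SD, n = 6 libraries, lowest 119, median 168, highest 282) and 149 ± 62.2 CPM in capillary-like cells, neighbours in its order that did not differ beyond their spread. Venous-like cells had 17.9 ± 15.8 CPM, with 0 counts in RT replicate 2. Its levels in the 7 mural and stromal classes were 2.87 CPM or less.

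In the fit of the endothelial classes, with the library as a block, edgeR's quasi-likelihood test called 5 of 7 tested genes between arterial-like and capillary-like cells (percent called over all genes 21.9), 7 of 7 between arterial-like and venous-like cells (21.1) and 4 of 7 between venous-like and capillary-like cells (24.1). The median log2 difference of the 7 genes was 1.14 for arterial-like against capillary-like cells, beside -0.01 over all genes, and 2.07 for arterial-like against venous-like cells, beside 0.02 over all genes. Notch2, Notch3 and Heyl did not pass the filter on low counts there. Dll4 was higher in arterial-like than in venous-like cells by 2.68 (log2, SE 0.27, edgeR adjusted p = 2.36e-09) and lower in venous-like than in capillary-like cells by a log2 difference of -2.30 (SE 0.27, edgeR adjusted p = 8.40e-08). The difference between arterial-like and capillary-like cells, 0.38 (SE 0.16), did not pass (edgeR adjusted p = 0.0961).

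Jag1, the ligand by which endothelium is known to engage mural Notch3, showed another pattern. Arterial-like cells had 163 ± 48.6 CPM (lowest 112, median 162, highest 237), venous-like cells 30.5 ± 11.7 CPM and capillary-like cells 16.8 ± 7.18 CPM (lowest 9.46, median 15.0, highest 29.1). The lowest arterial-like library thus lay above the highest capillary-like library, and the log2 difference was 2.98 (SE 0.18, edgeR adjusted p = 5.49e-14). Jag2 was likewise arterial-like, with 194 ± 32.2 CPM against 51.1 ± 19.4 in capillary-like cells (log2 difference 1.70, SE 0.16, edgeR adjusted p = 5.69e-10) and 39.2 ± 17.5 in venous-like cells (2.07, SE 0.21, edgeR adjusted p = 3.78e-09).

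Dll1, a ligand related to Dll4, was the only one of the 7 whose level was lower in arterial-like than in venous-like cells. Venous-like cells had 135 ± 80.6 CPM (lowest 57.8, median 119, highest 290), arterial-like 61.7 ± 25.7 and capillary-like 51.0 ± 18.1, and the spread of the venous-like libraries covered the difference to the next class. With the library as a block, Dll1 differed between arterial-like and venous-like cells by -0.98 (log2, SE 0.18, edgeR adjusted p = 9.49e-05) and between venous-like and capillary-like cells by 1.30 (SE 0.18, edgeR adjusted p = 1.70e-06).

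Among the receptors, Notch1 was found in every endothelial class. It had 264 ± 56.7 CPM in arterial-like cells (lowest 195, median 253, highest 337), 164 ± 52.8 in capillary-like and 149 ± 67.0 in venous-like cells. It was higher in arterial-like than in capillary-like cells by 0.79 (log2, SE 0.14, edgeR adjusted p = 3.92e-05), and venous-like and capillary-like cells differed by -0.08 (SE 0.17, edgeR adjusted p = 0.827).

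Notch4, a receptor known from endothelium, stepped down from arterial-like (129 ± 50.9 CPM) through capillary-like (57 ± 11.7) to venous-like cells (24.3 ± 9.99). Each step was called: arterial-like against capillary-like cells gave 1.14 (log2, SE 0.15, edgeR adjusted p = 4.76e-07) and venous-like against capillary-like cells -0.79 (SE 0.24, edgeR adjusted p = 0.0146). The second step was lost without COLD replicate 1 and without COLD replicate 2, at edgeR adjusted p of up to 0.0804. Notch2 and Notch3 were low in endothelium, at 1.75 to 5.18 and 2.45 to 6.17 CPM as means of the 3 classes.

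Hey1, the target most closely tied to arterial endothelium, had 368 ± 172 CPM in arterial-like cells, 73.0 ± 57.1 in capillary-like and 15.4 ± 13.4 in venous-like cells. The log2 difference was 2.48 for arterial-like against capillary-like cells (SE 0.21, edgeR adjusted p = 4.50e-11) and 3.98 for arterial-like against venous-like cells (SE 0.31, edgeR adjusted p = 1.54e-11). Venous-like against capillary-like cells gave -1.50 (SE 0.39, edgeR adjusted p = 0.00405), which was lost without COLD replicate 1 and without COLD replicate 2 (edgeR adjusted p of up to 0.0706). Heyl was at 3.96 to 7.43 CPM in the endothelial classes.

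**Figure D2:**
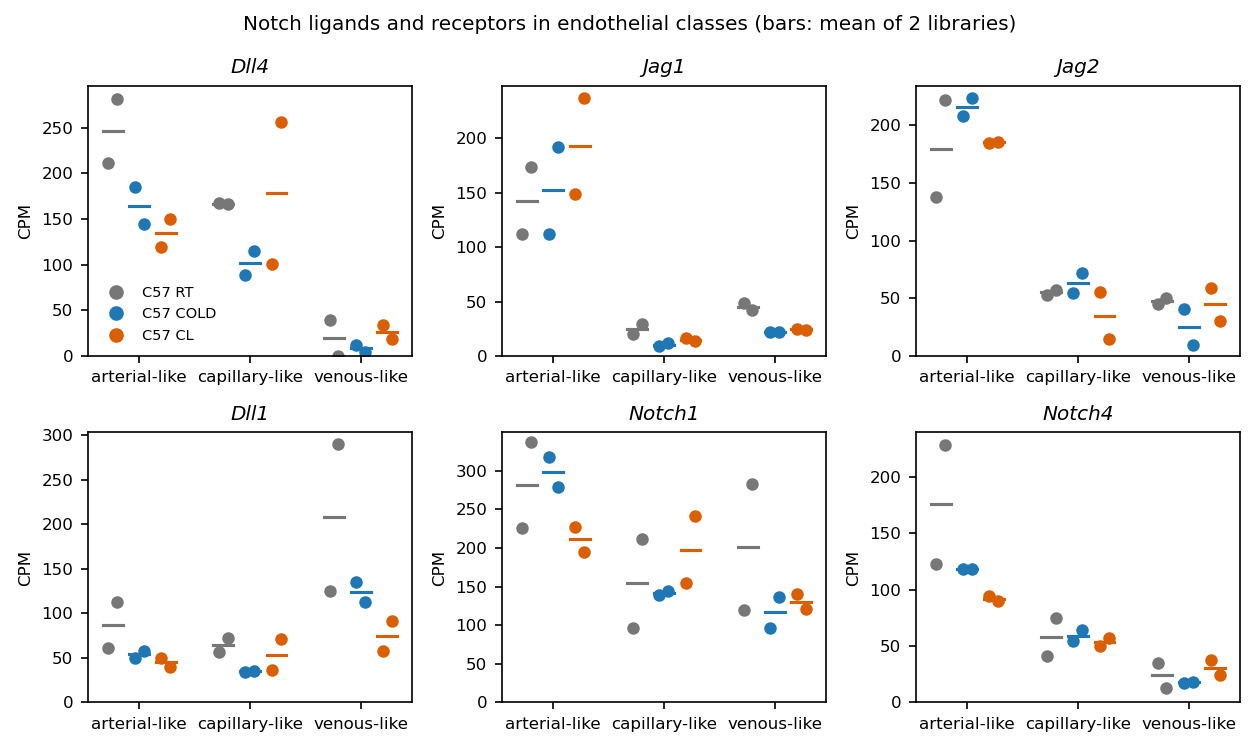
CPM of 4 ligands and 2 receptors in the 3 endothelial classes of each C57 Lin- library (points, coloured by treatment) with the mean of 2 libraries per group (bars). Jag1 in arterial-like cells (112 to 237 CPM) lay above every capillary-like library (9.46 to 29.1 CPM), while Dll4 overlapped between these classes.

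Notch3, the receptor that vascular smooth muscle is known to depend on, was a mural gene. VSMC-like cells had 953 ± 165 CPM (lowest 791, median 937, highest 1140) and pericyte-like cells 769 ± 98.6 CPM, and the next class in its order, ASC1-like cells, had 46.8 ± 7.67 CPM. Heyl had the reverse order within mural cells, with 582 ± 240 CPM in pericyte-like cells (lowest 346, median 565, highest 1005) and 306 ± 115 in VSMC-like cells. Jag1 was higher in VSMC-like (211 ± 22.0 CPM) than in pericyte-like cells (142 ± 37.1).

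Between the mural classes, 5 of 6 tested genes were called (percent called over all genes 47.3). Pericyte-like cells had more Notch4 (45.6 ± 32.3 CPM against 4.35 ± 4.47, log2 difference 3.31, SE 0.41, edgeR adjusted p = 4.58e-07), more Notch1 (169 ± 59.7 CPM against 80.8 ± 28.1, 0.82, SE 0.18, edgeR adjusted p = 0.000719) and more Heyl (0.73, SE 0.20, edgeR adjusted p = 0.00365). They had less Jag1 (-0.85, SE 0.15, edgeR adjusted p = 4.02e-05) and less Notch3 (-0.50, SE 0.19, edgeR adjusted p = 0.0302). The Notch3 call was lost in 4 of 11 alternatives and the Heyl call in 1. The endothelial ligands Dll1, Dll4 and Jag2 were at 2.95 CPM or less in both mural classes, with no Dll1 count in pericyte-like cells of the 6 C57 libraries. Hey1 had 28.8 ± 6.74 CPM in pericyte-like and 19.8 ± 12.8 in VSMC-like cells, a difference of 0.36 (SE 0.30) that did not pass (edgeR adjusted p = 0.352).

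Among stromal cells, receptors split by subtype. ASC1-like cells carried Notch1 (50.9 ± 12.7 CPM, lowest 39.1, median 50.5, highest 64.6) and Notch3 (46.8 ± 7.67), together with Heyl (26.4 ± 8.45) and Hey1 (12.2 ± 3.40). ASC2-like cells carried Notch2 (73.5 ± 16.4 CPM, lowest 56.6, median 71.5, highest 97.1) and Jag1 (54.1 ± 10.4), with Notch1 at 2.62 ± 0.613, Notch3 at 3.42 ± 1.86, Heyl at 1.70 ± 1.31 and Hey1 at 1.76 ± 0.746. ASC3-like cells lay between them for Notch1 (14.7 ± 6.62), Notch3 (16.1 ± 10.7) and Heyl (16.3 ± 9.79).

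All 6 tested genes were called between ASC1-like and ASC2-like cells (percent called over all genes 49.3), 4 of 6 between ASC1-like and ASC3-like cells (31.2) and 6 of 6 between ASC2-like and ASC3-like cells (38.1), so the background of called genes was high in each. ASC1-like against ASC2-like cells gave log2 differences of 3.86 for Notch1 (SE 0.18), 3.81 for Notch3 (SE 0.25), 3.70 for Heyl (SE 0.20) and 2.62 for Hey1 (SE 0.26) on the higher side. On the lower side were Notch2 (-1.99, SE 0.10) and Jag1 (-1.34, SE 0.09). The largest edgeR adjusted p of these 6 was 1.15e-07. Against ASC3-like cells, ASC1-like cells had more Notch1 (1.78, SE 0.15), Notch3 (1.56, SE 0.19) and Heyl (0.66, SE 0.14). Jag1 (-0.33, SE 0.10, edgeR adjusted p = 0.0219) was lost in 5 of 11 alternatives. Hey1 (0.39, SE 0.19, edgeR adjusted p = 0.139) and Notch2 (-0.25, SE 0.12, edgeR adjusted p = 0.114) did not pass.

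The Cthrc1-led and Cilp-led stromal classes resembled ASC2-like cells in carrying Notch2, at 44.7 ± 15.2 and 39.4 ± 16.3 CPM, with Jag1 at 33.1 ± 2.18 and 19.0 ± 5.65 CPM. Their Notch1 (8.32 ± 2.16 and 12.4 ± 11.9 CPM), Notch3 (4.35 ± 2.07 and 4.30 ± 2.72) and Heyl (4.34 ± 3.14 and 6.97 ± 4.56) stayed below the ASC1-like means. These classes entered no class contrast, so those differences were not tested.

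**Figure D3:**
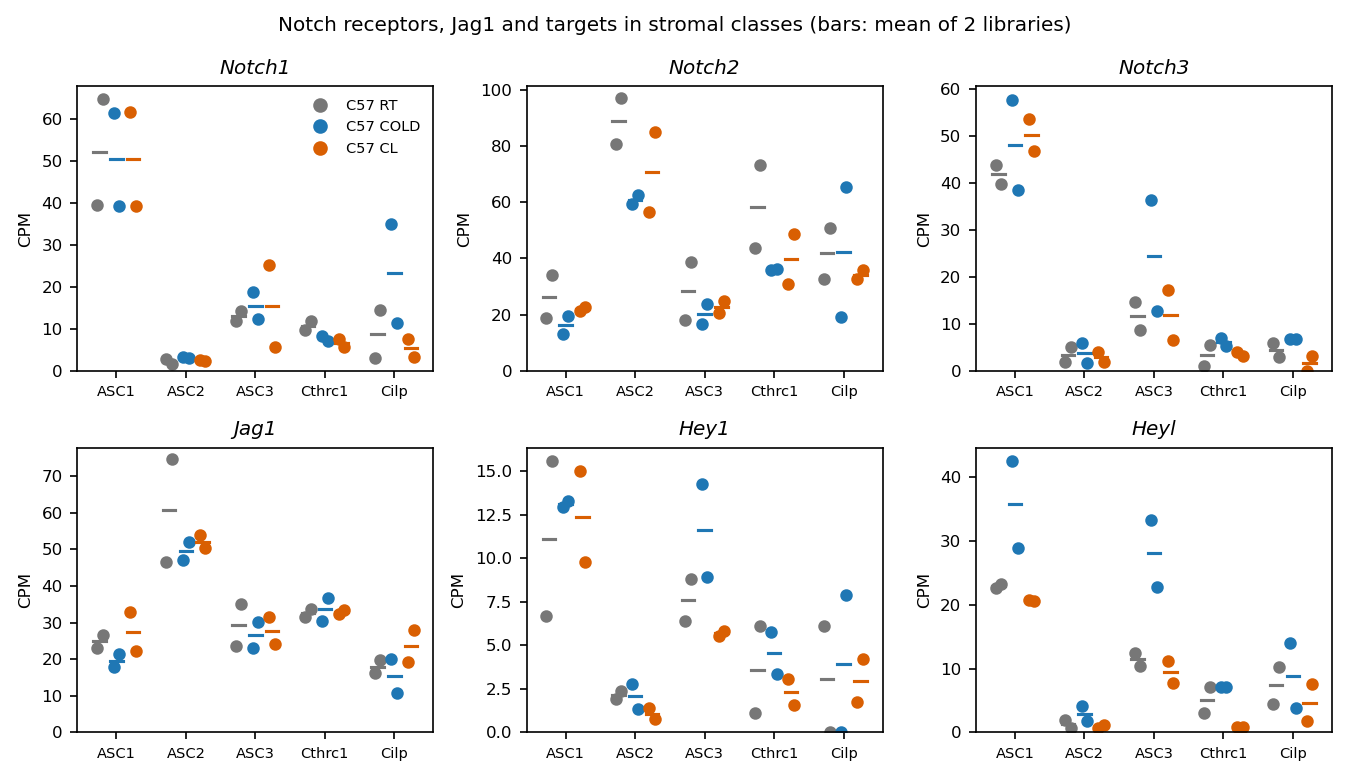
CPM of 3 receptors, Jag1, Hey1 and Heyl in the 5 stromal classes of each C57 Lin- library (points, coloured by treatment) with the mean of 2 libraries per group (bars). Notch1 in ASC1-like cells (39.1 to 64.6 CPM) lay above every ASC2-like library, and Notch2 in ASC2-like cells (56.6 to 97.1 CPM) above every ASC1-like library.

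The second question was how cold exposure and CL infusion changed these levels. Of 46 gene and class pairs that passed the filter on low counts, COLD against RT called 1, Hey1 in capillary-like cells, by edgeR's quasi-likelihood test (percent called over all pairs 2.23). The median log2 change of the 46 was -0.04, beside 0.003 over all pairs. An unadjusted p under 0.05 was reached by 9 pairs (19.6%, beside 10.75% of all pairs), 5 of them higher, and DESeq2 called 1, with 5 at an unadjusted p under 0.05 (5.72% of all pairs). CL against RT called 0 of 46 by edgeR (percent called over all pairs 0.296) and 0 by DESeq2, with 7 and 2 at an unadjusted p under 0.05 (8.38% and 3.75% of all pairs). All 7 of edgeR's were lower, as were 3.85% of all pairs at that threshold. The CL decreases given below include arterial-like Dll4, Notch4 and Dll1, venous-like Dll1 and pericyte-like Heyl. In each of these, RT replicate 2 had the higher RT value, and both CL values lay below RT replicate 1 as well. Of the Lin- libraries, RT replicate 2 kept the smallest share of its barcodes. Its part in these decreases was not tested beyond the fits with a library left out. COLD against CL called 1, again Hey1 in capillary-like cells (percent called over all pairs 0.12), with 4 at an unadjusted p under 0.05 (7.61% of all pairs), while DESeq2 called 0 with 3 at an unadjusted p under 0.05 (3.22%). COLD and CL share the RT libraries.

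The background of called genes in the single classes was low outside ASC1-like cells. For COLD against RT the percent called was 0 in arterial-like and venous-like cells, 0.0316 in the Cthrc1-led and 0.196 in the Cilp-led class, and it stands beside the values below for the others. For CL against RT it was 1.04 in ASC1-like, 0.847 in capillary-like, 0.348 in Cilp-led, 0.126 in Cthrc1-led, 0.0871 in ASC3-like, 0.0689 in ASC2-like and 0.0375 in arterial-like cells, and 0 in the other 3 classes. For COLD against CL it was 0.577 in capillary-like, 0.387 in ASC1-like, 0.0325 in pericyte-like, 0.0211 in Cthrc1-led, 0.0197 in ASC2-like, 0.0151 in Cilp-led and 0.0123 in VSMC-like cells, and 0 in the other 3. The plot of log2 fold changes gives every pair.

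**Figure D4:**
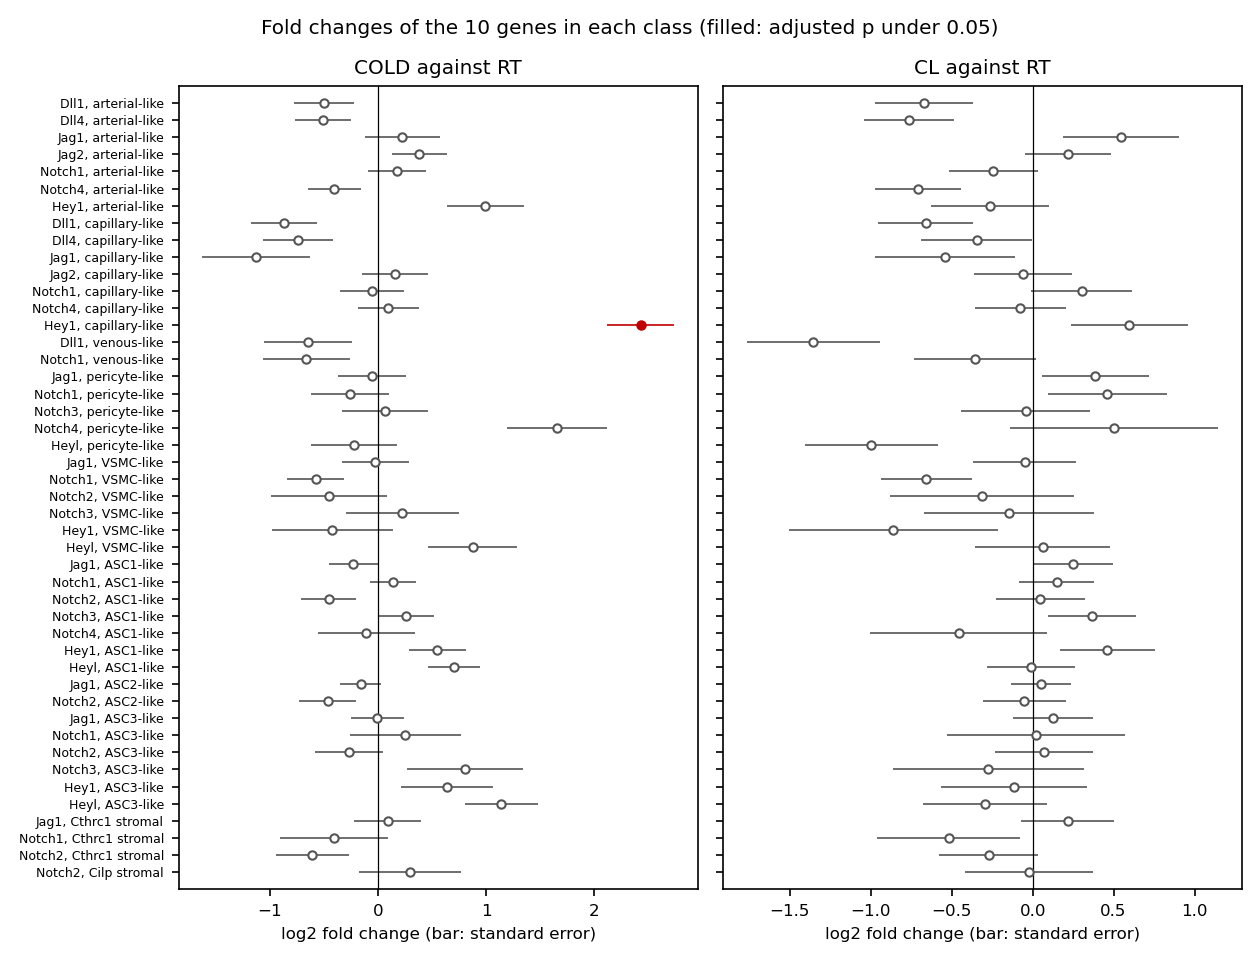
log2 fold change (point) and its standard error (bar) of each tested gene and class for COLD against RT (left) and CL against RT (right), 2 libraries per group, with pairs at edgeR adjusted p under 0.05 filled in red. Only Hey1 in capillary-like cells, at 2.43, is filled, in the COLD panel.

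Hey1 in capillary-like cells was at 21.7 and 30.5 CPM at RT, 114 and 166 CPM in COLD and 34.4 and 71.2 CPM in CL mice. Both COLD values lay above all RT and CL values. The rise was 2.43 on the log2 scale against RT (SE 0.31, edgeR adjusted p = 0.00129; percent called over all genes in capillary-like cells 1.37) and 1.83 against CL (SE 0.32, edgeR adjusted p = 0.0200; percent called 0.577). CL against RT gave 0.60 (SE 0.36, edgeR adjusted p = 0.748). The COLD against CL call was lost by DESeq2 (1.63, DESeq2 adjusted p = 0.979), without CL replicate 1 (0.93, edgeR adjusted p = 0.736) and without COLD replicate 2 (1.52, edgeR adjusted p = 0.308). As choices made after seeing the data, it was also lost without the capillary-like clusters E3 and E4 (1.40, edgeR adjusted p = 0.322), which stress and adipocyte genes such as Dnajb1 and Ucp1 led relative to other endothelial cells, and with only clusters E2 and E8 (1.17, edgeR adjusted p = 0.284).

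The capillary-like class was made of different clusters in the groups. In the C57 COLD libraries clusters E2 and E8 held 82.5% and 76.0% of its cells. They held 13.4% and 22.6% in C57 RT and 30.4% and 32.6% in CL. In WT mice they held 23 (E2) and 7 (E8) of 91 cells at RT, and 34 and 11 of 93 after cold. In KO mice they held 38 and 9 of 125 at RT, and 18 and 13 of 59 after cold. Hey1 had been left out of the clustering. With the C57 cells of each treatment pooled, E2 had 84.4 CPM of Hey1 in RT, 143 in COLD and 68.3 in CL. E8 had 79.9, 176 and 59.4 CPM in the same order. The other clusters had 0, 47.5 and 19.0 CPM (E3), 20.1, 32.3 and 22.6 CPM (E4) and 15.2, 54.5 and 14.8 CPM (E6), on 0 to 16.6 corrected counts per treatment. Of the cells in E6, 63.2% came from RT replicate 1, and CL replicate 1 gave 66.9% of those in E3 and 70.6% of those in E4. With the class limited to E2 and E8, an alternative chosen after seeing the data, the COLD against RT difference of Hey1 was 0.92 (SE 0.41) and did not pass (edgeR adjusted p = 0.547). How far the shares of the clusters and a change within them each made the result was not tested. Within E2 the RT values of Hey1 were 98.3 and 73.6 CPM and the COLD values 137 and 154 CPM, which did not overlap, while the CL values were 60.9 CPM and, from 4.99 corrected counts, 252 CPM. Hey1 was chosen here for its whole-class values, and the share of all genes that separated in this way within E2 was not computed. Within E8, which interferon-induced genes such as Ifit2 led among endothelial cells, the RT values were 37.0 and 132 CPM and the COLD values 122 and 252 CPM, which overlapped.

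The 11 arterial marker genes had a summed level in the capillary-like class of 2079 and 3525 CPM in COLD against 1039 and 1409 in RT and 1678 and 2463 in CL. Of the 11, 4 had both COLD values above both RT values, as did 19.7% of the genes tested in the class, and most of the COLD sum was Cxcl12 (1345 and 2656 CPM in COLD, 502 and 748 in RT). Gja5 was at 0 in all 6 libraries, and Bmx in 5 of them. The 9 tip cell markers had a summed level of 156 and 158 CPM in COLD and 511 and 390 in RT, with 4 below and 1, Plaur, above both RT values in both COLD libraries and 5 at 0 in at least 1 library. The 11 capillary markers summed to 26765 and 24979 CPM in COLD, 18156 and 24041 in RT and 19070 and 19508 in CL, with 5 above and 1 below both RT values in both COLD libraries. The part of any of these lists in the Hey1 result was not tested.

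In arterial-like cells Hey1 was at 209 and 415 CPM in RT, 587 and 542 in COLD and 199 and 256 in CL. Both COLD values again lay above the others, but the difference of 0.99 (SE 0.35) did not pass (edgeR adjusted p = 0.41; percent called 0). In venous-like cells the 6 values ran from 0 to 36.4 CPM, with COLD at 11.4 and 4.61, and Hey1 did not pass the filter on low counts. The difference in response between capillary-like and arterial-like cells was 1.34 on the log2 scale (SE 0.32, edgeR adjusted p = 0.0118; percent called 0.373), and was the single one called among the class by treatment terms tested, 40 in all for these genes. The percent called of the other 5 such terms ran from 0.1 to 0.925. The Hey1 call was lost in 8 of 11 alternatives.

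The Adrb1 line gives the same genes in separate mice, with 1 library for each genotype and temperature, and was not tested on its own. Hey1 in capillary-like cells of WT mice was at 18.3 CPM at RT (3 counts, exact 95% Poisson interval 3.79 to 53.7) and 158 CPM after cold (26 counts, 102 to 229). In KO mice it was at 4.25 CPM at RT (1 count, 0.108 to 23.7) and 368 CPM after cold (37 counts, 256 to 502). In arterial-like cells it went from 207 to 585 CPM in WT and from 110 to 567 CPM in KO mice. The cold library was the higher in each of these 4 pairs, with intervals, which cover counting error only, that do not overlap. All 10 Lin- libraries were also fitted together, with line as a term. COLD against RT then gave 2.85 in capillary-like (edgeR adjusted p = 5.06e-05) and 1.31 in arterial-like cells (edgeR adjusted p = 0.0113). This fit reuses the C57 libraries and does not separate temperature from kit in the Adrb1 line. The same limit holds for each result given below with all 10 Lin- libraries.

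**Figure D5:**
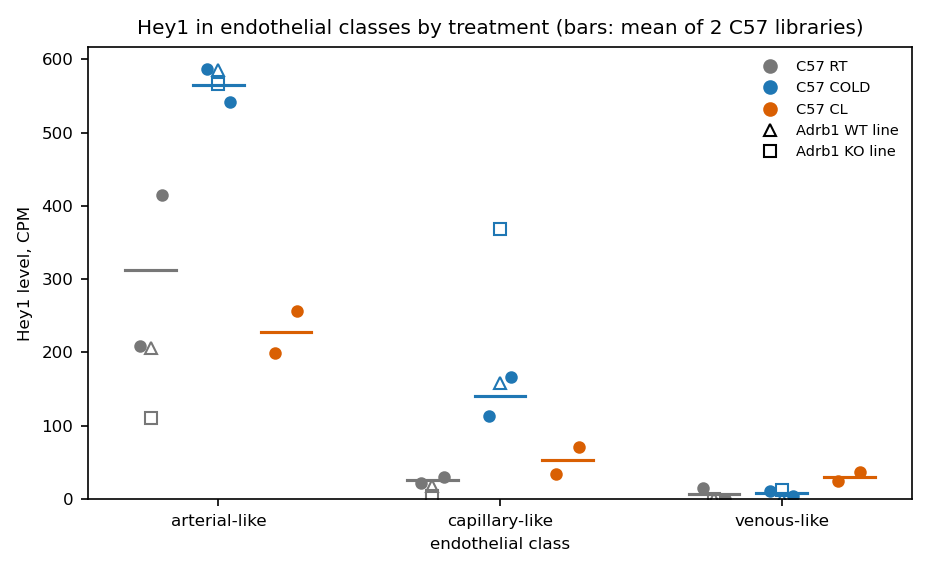
Hey1 level (CPM) in the 3 endothelial classes, with filled points for the C57 libraries, bars for the mean of 2 libraries per group, and open triangles and squares for the single libraries of the WT and KO mice of the Adrb1 line. In capillary-like cells all 4 COLD libraries (114 to 368 CPM) lay above all 4 RT libraries (4.25 to 30.5 CPM).

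In capillary-like cells 3 of the 4 ligands were lower in both COLD libraries than in both RT libraries, without passing the test. Dll1 was at 56.7 and 72.0 CPM in RT and 34.6 and 35.0 in COLD (-0.87, SE 0.31, edgeR adjusted p = 0.239). Dll4 was at 167 and 166 CPM in RT and 88.9 and 115 in COLD (-0.74, SE 0.32, edgeR adjusted p = 0.37). Jag1 was at 20.5 and 29.1 CPM in RT and 9.46 and 11.4 in COLD (-1.13, SE 0.50, edgeR adjusted p = 0.374). Of all genes tested in the class, 17.2% had both COLD values below both RT values. The Adrb1 line did not show the same order throughout. Its capillary-like Dll4 was at 128 CPM at RT and 125 after cold in WT and at 186 and 185 in KO mice. Dll1 was at 42.8 and 36.0 CPM in WT and at 29.7 and 68.5 in KO mice, and Jag1 at 30.3 and 5.43 in WT and at 8.35 and 46.5 in KO mice, on 1 to 7 counts per library. The receptors Notch1 (-0.05, SE 0.30) and Notch4 (0.09, SE 0.28) and the ligand Jag2 (0.16, SE 0.31) had differences below their standard errors in the C57 libraries. In arterial-like cells Jag2 (0.38, SE 0.26) and Jag1 (0.22, SE 0.35) were on the higher side and Dll4 (-0.51, SE 0.26) and Dll1 (-0.50, SE 0.28) on the lower side in COLD, and none of the 4 passed.

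Under CL, arterial-like Dll4 was at 119 and 150 CPM against 212 and 282 in RT (-0.76, SE 0.28), Notch4 at 94.2 and 90.2 against 123 and 229 (-0.71, SE 0.26) and Dll1 at 49.4 and 40.3 against 60.7 and 112 (-0.67, SE 0.30). The groups did not overlap for these 3, as for 17.6% of all genes tested in the class in this direction, and their edgeR adjusted p ran from 0.824 to 0.911. Cluster E0 held 78.6% and 72.1% of arterial-like cells in RT, 57.3% and 50% in CL and 88.9% and 85.4% in COLD, and cluster E7 held the rest. Within E0, Dll4 was at 208 and 332 CPM in RT and 120 and 138 in CL. Within E0, Hey1 was at 219 and 422 CPM in RT and 585 and 563 in COLD. Notch4 within E0 was at 123 and 228 CPM in RT and 103 and 89.1 in CL, and Dll1 at 61.6 and 86.1 in RT and 56.2 and 32.6 in CL. For these 4 genes, chosen for their whole-class values, the groups compared did not overlap within E0, which holds 50% or more of each library's arterial-like cells. The share of all genes that did so was not computed within E0, nor in the whole class for COLD against RT. Within E7 these genes had 3.997 to 35.6 corrected counts per library. Notch4 (120 and 232 CPM in RT, 71.6 and 92.0 in CL) did not overlap there either. Nor did Dll1 (56.9 and 194 in RT, 31.5 and 52.7 in CL), and the share of all genes that did so within E7 was not computed. Dll4 in E7 did overlap, at 227 and 124 CPM in RT and 116 and 171 in CL, as did Hey1, at 165 and 393 in RT and 609 and 334 in COLD. Dll1 in venous-like cells was at 57.8 and 91.7 CPM in CL against 125 and 290 in RT (-1.36, SE 0.41, edgeR adjusted p = 0.396; percent called 0).

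In mural cells the largest difference was that of Notch4 in pericyte-like cells. It was at 23.5 and 28.8 CPM in RT, 60.4 and 98.2 in COLD and 8.51 (0.996 corrected counts) and 54.1 in CL. COLD lay above RT in every library, but the difference of 1.66 (SE 0.46) did not pass (edgeR adjusted p = 0.241; percent called over all genes in pericyte-like cells 0.358). It passed without the filter on low counts and with all 10 Lin- libraries (1.64, edgeR adjusted p = 0.0195). It was not called by DESeq2, with the replicate block, or without any COLD or CL library. With a lone RT library the difference was 1.70 (without RT replicate 1) and 1.67 (without RT replicate 2). In the Adrb1 line it was at 32.0 CPM at RT and 108 after cold in WT, and at 35.3 and 98.5 in KO mice, on 2 to 15 counts per library. Cluster M4 held 72.5% and 77.7% of the pericyte-like cells of the COLD libraries and 1.92% or less of those of the other C57 libraries, and the 10 VSMC markers summed to 4816 and 3203 CPM in COLD against 843 and 1130 in RT, with 6 above and 0 below both RT values in both COLD libraries and Cnn1, Pln and Actg2 at 0 in at least 1 library. The 11 arterial markers summed to 4468 and 4914 CPM in COLD, 11637 and 16745 in RT and 9406 and 11857 in CL. Most of these sums was Mgp (7410 and 11746 CPM in RT, 3011 and 3668 in COLD) and Cxcl12 (3509 and 3942 in RT, 632 and 402 in COLD). Gja4 overlapped, at 657 and 1017 CPM in RT and 760 and 775 in COLD. Of the 11, 1 was above and 5 were below both RT values in both COLD libraries, and 6 were at 0 in at least 1 library. Over all genes tested in pericyte-like cells, 15.8% were above and 16.7% below in this way. The part of these clusters and lists in the Notch4 values was not tested.

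Notch3 differed between COLD and RT by 0.07 (SE 0.40) in pericyte-like and 0.22 (SE 0.52) in VSMC-like cells of the C57 mice, and neither passed. In VSMC-like cells of the Adrb1 line it was at 729 CPM at RT (exact 95% Poisson interval 663 to 798) and 1100 after cold (1003 to 1202) in WT and at 707 (605 to 819) and 1273 (1137 to 1419) in KO mice, with intervals that do not overlap. In pericyte-like cells it was at 860 and 775 CPM in WT and at 650 and 1038 CPM in KO mice. Heyl in VSMC-like cells was at 166 and 342 CPM in RT and 417 and 444 in COLD (0.88, SE 0.41, edgeR adjusted p = 0.928, percent called 0.037). In the Adrb1 line, where kit and temperature cannot be told apart, it was at 157 CPM at RT and 415 after cold in WT mice. In KO mice it was at 267 and 573 CPM. The fit with all 10 Lin- libraries did not call it. Cluster M8 held 75 of 165 and 1 of 246 VSMC-like cells in RT, and 0 of 323 and 5 of 253 in COLD. Cluster M3 held 2 and 95 of these cells in RT, and 135 and 79 in COLD. The part of these shares in the Heyl values was not tested. Heyl in pericyte-like cells was at 527 and 1005 CPM in RT, 643 and 602 in COLD and 367 and 346 in CL, so that CL lay below RT in both libraries (-0.996, SE 0.41, edgeR adjusted p = 0.817). Without RT replicate 1 this difference passed (-1.24, edgeR adjusted p = 0.0125), and without RT replicate 2 it was -0.67 (edgeR adjusted p = 0.694). The pericyte-like cells of the CL libraries lay in different clusters. Cluster M1 held 9.62% of those of CL replicate 1 but 77.6% of CL replicate 2, 83.8% of RT replicate 1 and 61.6% of RT replicate 2. Cluster M2, which haemoglobin and adipocyte genes such as Hbb-bs and Ucp1 led among mural cells, at a median of 700 UMIs, held 138 of 156 in CL replicate 1, 22 of 107 in CL replicate 2, 45 of 290 in RT replicate 1 and 138 of 375 in RT replicate 2. Within M1 Heyl was at 533 and 1015 CPM in RT and, from 4 corrected counts in replicate 1, 214 and 311 in CL, whereas within M2 the RT values of 343 and 990 and the CL values of 408 and 575 CPM overlapped. Without M2 the difference was -1.47 (SE 0.54, edgeR adjusted p = 0.9999).

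In ASC1-like cells of the C57 mice the receptors Notch1 (0.14, SE 0.22) and Notch3 (0.26, SE 0.26) had differences between COLD and RT no larger than their standard errors. Neither passed (edgeR adjusted p = 0.717 and 0.559; percent called over all genes in ASC1-like cells 13.2). Heyl was at 22.7 and 23.2 CPM in RT, 42.5 and 28.9 in COLD and 20.7 and 20.6 in CL. Both COLD values were above the others, with a log2 difference of 0.70 against RT (SE 0.24) that did not pass (edgeR adjusted p = 0.0917). With the replicate number as a block, which pairs libraries of the same experiment, it passed (0.72, edgeR adjusted p = 0.0387), as it did without cluster 2 of the class, an alternative chosen after seeing the data (1.32, SE 0.24, edgeR adjusted p = 0.0114), without the filter on low counts (0.74, edgeR adjusted p = 0.00615) and with all 10 Lin- libraries (0.52, edgeR adjusted p = 0.0386). DESeq2 did not call it, nor did any fit with a library left out. The 9 pericyte markers summed in ASC1-like cells to 427 and 451 CPM in COLD, 877 and 1126 in RT and 723 and 982 in CL, with 0 above and 6 below both RT values in both COLD libraries. The 10 VSMC markers summed to 312 and 172 CPM in COLD, 115 and 83.1 in RT and 262 and 142 in CL, with 4 above, 2 below and Cnn1, Lmod1 and Pln at 0 in at least 1 library. Of all genes tested in the class, 16.4% were above and 25.8% below in this way, and the part of either list in the Heyl values was not tested. Hey1 in ASC1-like cells, at 0.55 against RT (SE 0.26, edgeR adjusted p = 0.198), passed only with all 10 libraries (0.85, edgeR adjusted p = 0.019). In the Adrb1 line Heyl in ASC1-like cells went from 37.7 CPM at RT (exact 95% Poisson interval 29.1 to 48.5) to 44.0 after cold (40.1 to 48.1) in WT and from 38.6 (28.4 to 50.4) to 44.9 (40.0 to 50.1) in KO mice, with intervals that overlap. Notch3 there was at 28.3 CPM at RT and 55.9 after cold in WT, and at 39.3 and 56.7 in KO mice. Notch1 was at 41.3 and 46.6 CPM in WT, and at 82.1 and 48.6 in KO mice.

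ASC3-like cells had a like pattern for Heyl, at 12.4 and 10.5 CPM in RT, 33.3 and 22.7 in COLD and 11.2 and 7.76 in CL (COLD against RT 1.14, SE 0.34, edgeR adjusted p = 0.322; percent called over all genes in ASC3-like cells 0.3). Among the alternatives it passed only without the filter on low counts (1.15, edgeR adjusted p = 0.0322). Notch2 in ASC2-like cells was at 80.6 and 97.1 CPM in RT, 59.2 and 62.5 in COLD and 56.6 and 84.8 in CL (COLD against RT -0.47, SE 0.27, edgeR adjusted p = 0.685; percent called 0.63). The COLD values lay below both RT values without passing, and the Adrb1 line had the opposite order. There Notch2 in ASC2-like cells was at 73.1 CPM at RT (exact 95% Poisson interval 64.6 to 82.3) and 116 after cold (102 to 131) in WT and at 76.1 (61.6 to 93.7) and 107 (93.2 to 123) in KO mice, with intervals that overlap only in KO mice. In the Cthrc1-led class Notch2 gave -0.61 (SE 0.34), with no gene of the 10 called there or in the Cilp-led class, where 3 and 1 of them were tested.

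The other 44 genes of the pathway list (ligands, proteases, glycosyltransferases, transcription complex, targets, endocytosis and turnover) had 274 gene and class pairs tested, of which edgeR called 9 in COLD against RT (percent called over all pairs 2.23), 1 in CL against RT (0.296) and 2 in COLD against CL (0.12). In capillary-like cells 1 of 29 was called in COLD against RT (percent called over all genes 1.37), Lfng, a Fringe glycosyltransferase that changes which ligands a Notch receptor answers to. Lfng was at 16.2 and 22.6 CPM in RT, 56.8 and 76.0 in COLD and 18.7 and 14.2 in CL, so that COLD lay above the other groups in both libraries (1.74 against RT, SE 0.34, edgeR adjusted p = 0.0164, and 1.74 against CL, SE 0.35, edgeR adjusted p = 0.0399). DESeq2 called 0 of the 29 in either contrast, with 2 and 1 at an unadjusted p under 0.05. The part of the cluster shares given for Hey1 was not tested for Lfng.

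The pathway list holds 2 further Notch targets that were tested in endothelium, Hes1, a repressor of the Hes family, and Nrarp, a feedback inhibitor of Notch signalling. They were not called in any treatment contrast of these classes, and their values, named here after they were seen, did not follow those of Hey1. Hes1 in capillary-like cells was at 529 and 357 CPM in RT, 260 and 221 in COLD and 269 and 371 in CL, so that both COLD values lay below both RT values (-0.93, SE 0.36, edgeR adjusted p = 0.293). In arterial-like cells it was at 358 and 217 CPM in RT and 205 and 112 in COLD (-0.92, SE 0.38, edgeR adjusted p = 0.519). In the Adrb1 line capillary-like Hes1 was at 127 CPM at RT and 184 after cold in WT mice and at 211 and 177 in KO mice. Nrarp in capillary-like cells was at 98.3 and 167 CPM in RT and 127 and 107 in COLD (-0.12, SE 0.25, edgeR adjusted p = 0.914), which overlapped. In arterial-like cells Nrarp was at 149 and 288 CPM in RT and 116 and 88.1 in COLD (-0.95, SE 0.32, edgeR adjusted p = 0.366). In ASC1-like cells, where Heyl was higher in both COLD libraries, Hes1 was at 166 and 135 CPM in RT, 98.3 and 74.2 in COLD and 149 and 168 in CL (COLD against RT -0.74, SE 0.32, edgeR adjusted p = 0.161). Both of its COLD values lay below the others.

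In ASC1-like cells 7 of 33 pathway genes were called in COLD against RT, 2 higher and 5 lower (percent called over all genes 13.2, the highest of the treatment contrasts), and DESeq2 called 4. The median log2 change of the 33 was -0.18, beside 0.01 over all genes. Cluster 2, whose share of the class differed as given, was part of these sums, and its part in the changes was not tested. Dlk1, a non-canonical ligand known as an inhibitor of adipogenesis, was at 168 and 115 CPM in RT, 6.41 and 2.78 in COLD and 8.28 and 27.5 in CL (-4.94, SE 0.59, edgeR adjusted p = 0.0014). It also fell in ASC3-like cells, from 12.9 and 17.1 CPM to 0 and 0.466 (edgeR adjusted p = 0.0301), where DESeq2 called 0 pathway genes with 1 at an unadjusted p under 0.05. The single pathway gene that edgeR called in CL against RT, named after its values were seen, was Dlk1 in the Cthrc1-led class, which rose from 5.19 and 7.34 to 53.9 and 28.7 CPM (2.83, SE 0.42, edgeR adjusted p = 0.0438). DESeq2 called 1 pathway gene there and 1 in ASC1-like cells in that contrast. In the Cthrc1-led class Dlk1 was at 0 and 0.678 CPM in COLD, the other pair called in COLD against CL (edgeR adjusted p = 0.013). Numb, an inhibitor of Notch receptors (-0.94, SE 0.21, edgeR adjusted p = 0.0209), and Dtx4, a ubiquitin ligase of the Deltex family (-0.77, SE 0.18, edgeR adjusted p = 0.0261), also fell in ASC1-like cells.

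The genes most like each member were sought over 60 sums (10 classes in 6 libraries, so the points share libraries) by Pearson's r of log2(CPM + 1) among 11424 genes. The closest were Csf2rb for Dll1 (0.967), Magix for Dll4 (0.93), Gja4 for Jag1 (0.833), Sox17 for Jag2 (0.965), Snrk for Notch1 (0.947), Adam33 for Notch2 (0.85), F11r for Notch4 (0.921) and Unc5b for Hey1 (0.842). Notch3 (0.957) and Heyl (0.923) had the same closest gene, Gucy1b1, a subunit of soluble guanylate cyclase. The next 2 were Prkch and Tie1 for Dll1, Cldn5 and Gm12002 for Dll4, Afap1l2 and Fchsd2 for Jag1, Nova2 and St6galnac3 for Jag2, Ets1 and Cd151 for Notch1, Tubb6 and Naaa for Notch2, Tbx2 and Foxs1 for Notch3, Tmod3 and Adgrf5 for Notch4, Kctd12b and Myo10 for Hey1, and Ptger2 and Foxs1 for Heyl.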

How the data were processed

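Libraries of iBAT Lin- and Lin+ cells were analysed from the deposited matrices, which hold estimated counts: per the labels and the study's methods, the authors counted UMIs with Cell Ranger 3.0.1 (mm10 is named in the submitters' processing notes) and corrected them with SoupX, taking Fabp4 and Car3 as genes the cells do not express, so at least 97.2% of non-zero values per library are not whole. Groups came from the sample titles. Cells with at least 10% mitochondrial UMIs, over 15000 UMIs or under 100 genes (Lin-) were removed as in the study. Lin- cells were clustered with scanpy 1.11.5 (2000 variable genes, 30 principal components, 30 neighbours, Leiden resolution 1), without the Notch list genes, after alignment of cohorts. A cohort was the C57 libraries of a replicate number together, or a single library of the Adrb1 line. The RT, COLD and CL libraries of a C57 replicate were thus not aligned to each other. Doublets were kept, and alternatives left out the top 6% of scores or cells with both endothelial and mural markers. The endothelial and the mural cells were then clustered again in the same way, each on their own (18 clusters, E0 to E17, and 12, M0 to M11). Classes were named from marker lists, the blood vascular ones from these second clusterings and the others from the 26 clusters of all cells, and the class names are rebuilt, so they need not match the study's.

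Counts were summed per library and class, rounded and tested with edgeR 4.0.16 in R 4.3.3 (TMM, filterByExpr, quasi-likelihood) over the 6 C57 Lin- libraries, two-sided, with Benjamini-Hochberg adjustment over all genes of a contrast and 0.05 as the threshold. Classes had at least 20 cells in each library of the main fits. Alternatives that left clusters out went below this. With E2 and E8 only, CL replicate 2 held 15 capillary-like cells. Without M2, the pericyte-like class of CL replicate 1 held 15 cells of M1 and 3 of M4. Contrasts between classes had the library as a block. The genes named were the 10 members, up to 4 called pathway genes per class and contrast, and the 3 most similar genes per member. The values of 1 pathway gene that this rule names are not reported here. The members and lists were chosen with earlier results of these data known. Class totals limit precision: Lin- libraries held 7.86e+06 to 3.13e+07 UMIs. The script was tested on simulated data. DESeq2 1.42.0, no filter on low counts, leaving out each replicate, the replicate block and other choices were tried as alternatives. Pools are the replicates, and replicates of a group differed beyond sampling noise (chi-square per degree of freedom 35.4 to 132). Lin- libraries shared at most 2.04% of barcodes. RT replicate 2 (Lin-) kept 28.0% of its barcodes. The methods say that libraries of the same number came from the same experiment, so the numbers pair the samples. The correlation of their deviations from group means was over 0.1 in 12 of 30 class-by-pair cases (lowest -0.225, median 0.0844, highest 0.5). Its highest values were between COLD and CL libraries, at 0.5 in ASC3-like, 0.481 in ASC1-like and 0.311 in arterial-like cells. Sequences were credited to RefSeq, coordinates to GENCODE on GRCm38.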

Additional observations from a re-analysis of the deposited data

Results flagged for a closer look

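The response of Hey1 to cold differed between capillary-like and arterial-like cells: the class by treatment term was 1.345 on the log2 scale (SE 0.32, edgeR adjusted p = 0.0118), with a change of 2.43 in capillary-like and 0.99 in arterial-like cells. It was called in 3 of 11 alternatives and lost in the other 8, which were DESeq2, no filter on low counts, leaving out RT replicate 1, RT replicate 2, CL replicate 1, CL replicate 2 or COLD replicate 2, and leaving out clusters E3, E4 and M2. Its range over the alternatives was 1.03 to 1.68, with adjusted p from 0.00994 (edgeR) to 0.9999 (DESeq2). The clusters E2 and E8, which hold most capillary-like cells of the C57 mice after cold, also differed in share between groups. With those clusters only, an alternative chosen after seeing the data, the capillary-like change was 0.92 (SE 0.41, edgeR adjusted p = 0.547), beside 0.99 (SE 0.35) in arterial-like cells, and the class by treatment term was not refitted on them.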

How the results depend on the processing

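The 40 calls of the 10 genes were recomputed under 441 alternative values, of which 413 kept the call, 28 lost it and 0 reversed it, and 32 calls were never lost. COLD against RT gave 1 call as reported, 4 with no filter on low counts, 2 with the replicate block, 5 with all 10 Lin- libraries, and, as choices made after seeing the data, 2 without ASC1-like cluster 2 and 0 with capillary-like clusters E2 and E8 only. With 1 library left out it gave 1 to 2, CL against RT 0 to 1 (1 without RT replicate 1, Heyl in pericyte-like cells) and COLD against CL 0 to 1, where the lone library of a group is assumed to vary like the others. COLD against CL gave 0 by DESeq2, 3 with no filter, 0 without E3, E4 and M2 and 0 with E2 and E8 only. Class by treatment terms gave 1 call, 0 by DESeq2, 0 with no filter, 0 without E3, E4 and M2, and 0 to 1 with 1 library left out. Pericyte-like against VSMC-like cells gave 5 calls and 3 to 6 with 1 library left out (3 without RT replicate 1), the endothelial classes 16 and 14 to 16, and the ASC classes 16 and 15 to 16. The replicate block, which pairs same-numbered libraries, added the call of Heyl in ASC1-like cells (0.72, edgeR adjusted p = 0.0387) and changed no other call. Except for the clusters and libraries left out, the cause of these moves was not tested.

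Counts over all genes, from which the background shares come, moved by over 1.5 times in COLD against RT in ASC1-like (1608 genes, 511 to 4153 over alternatives), capillary-like (107, 5 to 532) and pericyte-like cells (22, 2 to 358), and in the small counts of the other treatment contrasts. Of the 10 genes, 1 passed the filter on low counts in the Cilp-led class and 2 in each of the venous-like and ASC2-like classes.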

Other observations

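Classes too small for the fits gave further values. In lymphatic endothelial-like cells (99 cells in the 6 C57 libraries, led by Ccl21a, Mmrn1 and Lyve1) Notch1 was at 322 ± 59.9 CPM (SD, n = 6, lowest 236, median 337, highest 385), while Notch4 and Heyl had no count in any of them. Tip-like endothelial cells (205 cells) had Dll4 at 154 ± 135 CPM, Notch1 at 115 ± 64.2 and Notch4 at 61.9 ± 39.3, with Hey1 at 489 CPM in COLD replicate 1 from 5.87 corrected counts and at 0 in 3 of the 6 libraries. These values rest on few cells and were not tested.

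The Lin+ fraction was taken whole. Over the C57 mice and the Adrb1 line, its RT and COLD libraries overlapped for the other members but not for Notch1, Notch2, Dll1 or Dll4. Temperature and kit version cannot be told apart in the Adrb1 libraries among them. Each of these 4 was lower in COLD. The share of all Lin+ genes that separated in this way was not computed, so how usual this is cannot be told. The 4 RT values of Notch1 ran from 35.8 to 81.8 CPM and its 4 COLD values from 15.0 to 17.0, with CL mice at 26.2 and 24.9. Notch2 was at 53.7 to 74.8 CPM in RT, 32.1 to 40.3 CPM in COLD and 34.8 and 53.3 CPM in CL. Dll1 was at 0.962 to 2.60 CPM in RT and 0.265 to 0.619 in COLD. Dll4 was at 1.58 to 4.32 CPM in RT and 0.483 to 1.36 in COLD. The mix of cells and the level per cell cannot be told apart in these totals, and the differences were not tested. Jag1 ran from 3.26 to 11.2 CPM, and Dll1, Dll4, Jag2, Notch3, Notch4, Hey1 and Heyl had medians of 0.791 to 2.27 CPM.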
